A study of Mus musculus with 11 samples.

Results

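Fibroblast growth factor (FGF) receptors and ligands were followed in 11 mouse high-grade gliomas by RNA sequencing. The 10 genes were taken by their symbols from a table of 27687 genes: the receptors Fgfr1, Fgfr2, Fgfr3 and Fgfr4, the receptor-like gene Fgfrl1, and the ligand-family genes Fgf1, Fgf2, Fgf9, Fgf13 and Fgf18. All the tumours grew in the brains of NOD-SCID mice, an immunodeficient strain, from glioma initiating cells. These cells were neural stem cells of the subventricular zone of 7-day-old mice whose conditional alleles include p53, Ink4a/Arf and LucR, recombined in culture by 3 rounds of lentivirus with Cre under the CMV promoter. The culture medium of the starting stem cells held EGF and bFGF (the FGF2 protein) at 20 ng/ml each, and the cells of all tumours carried the same doxycycline-responsive hairpin construct against Ezh2 (FH1-tUTG-shEzh2). By their titles, 9 were Ezh2 knockdown tumours and 2 were control tumours. The labels give doxycycline at 2 mg/ml with 1% sucrose for every tumour, whereas the design text speaks of mice with or without the drug, so that hairpin and doxycycline cannot be told apart. No clones, pools or batches are named in the labels, and nothing there ties a tumour to a cell preparation of its own. The p-values below therefore reflect the scatter among these libraries, part of which may be technical.

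FGFs are secreted or intracellular proteins. The secreted ones bind receptor tyrosine kinases together with heparan sulfate, a sulfated sugar chain on cell-surface proteoglycans, and the receptors signal through the adaptor FRS2 to the RAS-MAPK and other pathways. Signalling switches on its own inhibitors, the Sprouty, Spred and Dusp proteins. In the brain FGF2 is the classic growth factor for neural stem cells, FGFR1 is a receptor of neural progenitors and FGFR3 is typical of astrocytes.

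The libraries held between 11209233 and 18638382 counts. Ezh2, the target of the hairpin, was lower in each of the 9 knockdown tumours than in both controls (log2 fold change -1.59 ± 0.44 SE, edgeR adjusted p = 0.023, exact two-sided permutation p = 0.018, the smallest that 55 splits allow). Leaving out a control ended the edgeR call of Ezh2, with -1.70 (adjusted p = 0.11) when control 1 was dropped and -1.48 (adjusted p = 0.14) when control 2 was. Knockdown tumours 1, 7, 8 and 9 stood apart by having at most 14 counts of Xist, the RNA of the inactive X chromosome of female cells, against at least 600 in the 7 other libraries, controls included. Knockdown tumours 7 and 9 also had the extreme values of several genes below. Of the 10 neural stem and progenitor markers, which include Nes, Sox2, Olig2, Vim and Egfr, none was at 0 in both controls or in every library. Their summed level lay between 2323 and 3915 CPM (counts scaled to a common library size) in the knockdown tumours. It was 7329 and 6343 CPM in the controls. Most of the sum was Vim, with a mean of 2526 CPM in the knockdown tumours and 5043 CPM in the controls. Of the 9 tested markers 4 fell (Nes, Sox2, Vim and Olig2), 1 rose (Egfr) and the others did not pass. Of the markers of microglia and macrophages 9 of 11 fell, and of those of neutrophils 7 of 8. Among all tested genes 13.0% fell and 10.3% rose. The sums of the microglia and macrophage markers differed widely between control 1 and control 2 (848 and 1798 CPM). So did those of the neutrophil markers (200 and 59.4 CPM).

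Compared per kilobase (kb) of exon, Fgfr1 and Fgf1 were the most abundant of the 10 genes in the knockdown tumours and Fgf9 the least. There Fgfr1 stood at 46.7 ± 7.79 CPM per kb (SD, n = 9) and Fgf1 at 45.2 ± 31.0 CPM per kb. Fgfr1 was the higher in 7 of 9 knockdown tumours and 1 of 2 controls, so that this pair did not differ beyond its spread. Fgfrl1 followed at 25.3 ± 25.4 CPM per kb, below Fgf1 in 8 of 9 tumours, and Fgfr3 at 4.84 ± 2.64 CPM per kb, below Fgfrl1 in 9 of 9. Fgfr4 (1.51 ± 1.77), Fgf18 (0.784 ± 0.410) and Fgfr2 (0.718 ± 0.565 CPM per kb) had no settled order. By its mean Fgf2 came next at 0.506 ± 0.223 CPM per kb. Fgfr2 lay above it in only 6 of 9 tumours and 0 of 2 controls, so that their order was not settled either. Fgf2 was above Fgf13 (0.165 ± 0.0876) in 9 of 9 tumours and in both controls, and Fgf9 had 0.0583 ± 0.0538 CPM per kb. In the controls the means per kb were 62.9 for Fgfr1, 46.5 for Fgfrl1, 38.4 for Fgf1, 3.97 for Fgf18, 2.60 for Fgfr3, 1.24 for Fgf2, 0.583 for Fgfr2, 0.180 for Fgf13, 0.0616 for Fgf9 and 0.0482 for Fgfr4. By its mean Fgfr4 was the lowest of the 10 genes in the controls, though on 2 and 3 counts and not below Fgf9 in control 2, and in the middle of the order in the knockdown tumours.

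Between the groups, 2 of the 9 tested genes passed the test, Fgf2 and Fgf18, both lower in the knockdown tumours. The test was edgeR's quasi-likelihood F-test on counts over 16241 genes, passed at a Benjamini-Hochberg adjusted p under 0.05. Of all tested genes 23.3% passed, 10.3% higher and 13.0% lower, so that 2 of 9 is close to the background. None of the 9 genes passed as higher by edgeR, while at an unadjusted p under 0.05 there were 1 higher and 3 lower. DESeq2 called 1 higher (Fgfr4) and 3 lower (Fgf2, Fgf18 and Fgfrl1), and limma-voom 0 higher and 1 lower (Fgf2). The median log2 fold change of the 9 genes was -0.11, against 0.07 over all tested genes. In 2 of the 9 the groups did not overlap, Fgfr4 above and Fgfr1 below, while 27.2% of all tested genes had no overlap (13.3% above, 13.8% below). The tenth gene, Fgf9, did not pass the filter on low counts and was not tested.

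**Figure D1:**
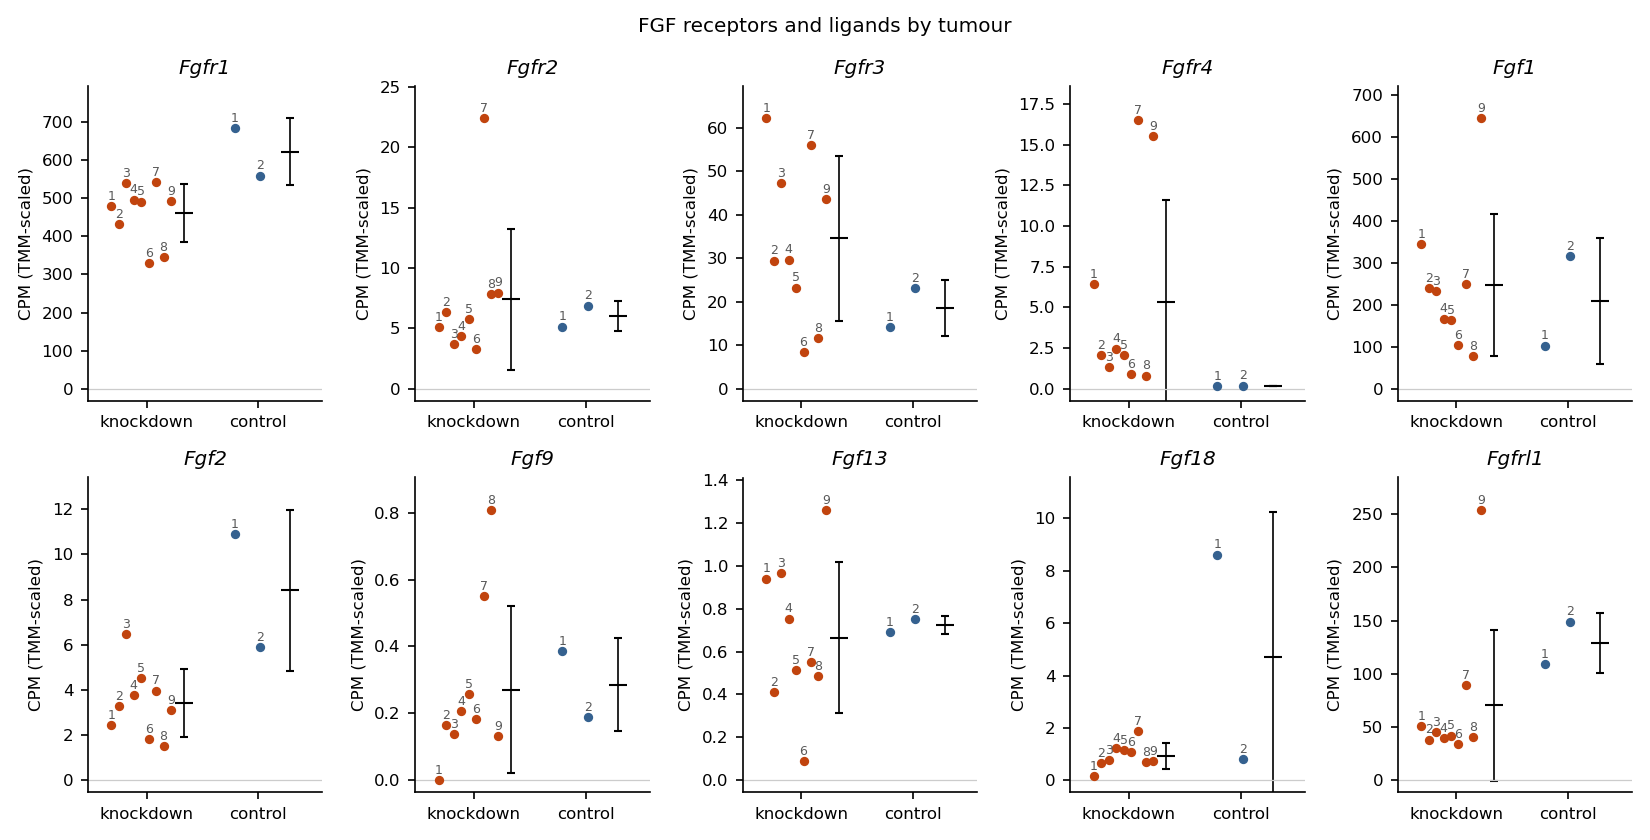
Level of each gene in every tumour, in TMM-scaled CPM on linear axes of differing range for the 9 knockdown tumours (left) and the 2 controls (right), 1 point a tumour, numbered by replicate, with mean ± SD beside them (bars that reach below 0 end at the axis). Fgfr1 lies below and Fgfr4 above both controls in all 9 knockdown tumours, knockdown 9 is high for Fgf1 (644 CPM) and Fgfrl1 (254 CPM), and the Fgf18 mean of the controls is set by control 1 (8.62 CPM).

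Fgfr1, the main FGF receptor of neural progenitors (ENSMUSG00000031565, mm9 chromosome 8, 26624126 to 26686186), was read at 330 CPM in the lowest knockdown tumour (knockdown 6), 491 CPM at the median and 542 CPM in the highest (knockdown 7). The controls had 683 CPM and 559 CPM, above every knockdown tumour, though control 2 lay only slightly above knockdown 7 and knockdown 3 (539 CPM). The log2 fold change was -0.43 ± 0.19 (SE, edgeR adjusted p = 0.12), and it did not pass in any of the 19 alternative settings (adjusted p from 0.057 to 0.56). Knockdown 6 and knockdown 8, at 330 and 345 CPM, were under the 7 others, which began at 432 CPM. The summed neural stem and progenitor markers were lower in the knockdown tumours too, as given above, and their part in the level of Fgfr1 was not tested. In RNA of whole tumours fewer cells of a type and less RNA per cell cannot be told apart.

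Fgfr3, the receptor typical of astrocytes and radial glia (ENSMUSG00000054252, mm9 chromosome 5, 34064373 to 34079716), ranged in the knockdown tumours from 8.36 CPM in knockdown 6 and 11.6 CPM in knockdown 8 over a median of 29.7 CPM to 56.0 CPM in knockdown 7 and 62.2 CPM in knockdown 1. The controls had 14.2 and 23.1 CPM, so that 7 knockdown tumours lay above both controls and 2 below both. The log2 fold change was 0.89 ± 0.64 (SE, edgeR adjusted p = 0.34). Of 12 astrocyte markers, all detected, 1 fell and none rose, while 13.0% of all tested genes fell and 10.3% rose. The summed level of the astrocyte markers was lowest in knockdown 6 (926 CPM) and highest in knockdown 7 (1927 CPM), against 1338 and 1449 CPM in the controls. In knockdown 1, the tumour with the most Fgfr3, it was 1589 CPM. The largest part was Gja1 (686 CPM on average in the knockdown tumours). Among these tumours Gja1 was highest in knockdown 3 and lowest in knockdown 9. The part of the astrocyte markers in the spread of Fgfr3 was not tested.

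Fgfr4, a receptor that is scarce in the normal brain and abundant in liver and developing muscle (ENSMUSG00000005320, mm9 chromosome 13, 55254001 to 55270120), was close to the detection floor in the controls and present in every knockdown tumour. The controls had 2 and 3 counts (0.154 and 0.188 CPM), and 3 counts, taken as the floor, correspond to 0.231 and 0.188 CPM in these libraries. The knockdown tumours had 6.42, 2.06, 1.31, 2.47, 2.06, 0.909, 16.5, 0.808 and 15.5 CPM in the order of their numbers 1 to 9. Knockdown 7 and knockdown 9 were thus far above the others, and even the lowest tumour, knockdown 8 with 15 counts, exceeded both controls. The ratio of summed counts, 723 in the knockdown tumours against 5 in the controls, was 32.1 after scaling (95% exact binomial interval 13.7 to 99.1, counting error only). Without knockdown 7 and 9 it was 12.8 (5.40 to 39.8, on 219 counts).

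The fitted log2 fold change of Fgfr4 was 4.89 ± 1.67 (SE), which just missed the threshold (edgeR adjusted p = 0.053). Without knockdown 7 and 9, a choice made after seeing the data, it was 3.63 and passed (adjusted p = 0.020). Among the 7 libraries with Xist it was 3.27 (adjusted p = 0.0076). It passed in 6 of 19 alternative settings in all, the others being DESeq2 (adjusted p = 0.00051) and the fits without knockdown 3, 6 or 8 in turn (adjusted p from 0.042 to 0.048). The threshold was missed most widely by limma-voom (3.88, adjusted p = 0.19) and when control 1 (adjusted p = 0.26) or control 2 (adjusted p = 0.22) was left out, and in the rest of the settings the adjusted p lay between 0.051 and 0.072. Of the 8 markers of oligodendrocyte precursors 3 rose (Pdgfra, Gpr17 and Vcan), 1 fell (Olig1) and 4 did not pass. None was at 0 in both controls, although Gpr17 was in control 2. For these and the markers below, the background was 10.3% of all tested genes higher and 13.0% lower. The sum of the precursor markers was mostly Vcan in the knockdown tumours (803 CPM on average, against 176 CPM in the controls). It lay between 731 (knockdown 8) and 1967 CPM (knockdown 7), against 483 and 529 CPM in the controls. In knockdown 9 it was 1002 CPM, below knockdown 1 (1203 CPM) and knockdown 4 (1094 CPM). Markers of mature oligodendrocytes, 3 of 9 of which rose, summed to between 288 and 445 CPM against 136 and 110 CPM in the controls. Their sums in knockdown 7 and 9 were 293 and 341 CPM. The part of these markers in the level of Fgfr4 was not tested.

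Since Fgfr4 was the receptor nearest to silent in the controls, its promoter is shown. These are the 250 bases before the RefSeq start, on GRCm38.p6 at chr13:55152568-55152817, plus strand, 5′ to 3′, with each CG dinucleotide in capitals.
Fgfr4: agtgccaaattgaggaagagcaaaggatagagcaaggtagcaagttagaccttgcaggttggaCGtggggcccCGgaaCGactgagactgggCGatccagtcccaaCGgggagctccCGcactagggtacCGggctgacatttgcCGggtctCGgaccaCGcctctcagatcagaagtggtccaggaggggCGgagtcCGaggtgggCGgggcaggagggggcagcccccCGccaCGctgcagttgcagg
CG is the site of DNA methylation, and CG-rich promoters are the usual places where Polycomb complexes bind. The stretch held 15 CG, and 27.3% of the 32851 promoter windows of this length in the RefSeq table held at least as many (median 6). The count describes the sequence alone, since neither methylation nor binding was measured here. Of the 10 genes, 8 had a window in the table. The window of Fgfr2 held 2 CG, that of Fgfrl1 30 and that of Fgf18 37.

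Fgfr2, a receptor of glia and epithelia (ENSMUSG00000030849, mm9 chromosome 7), was low and did not pass the test. The knockdown tumours lay between 3.27 CPM (knockdown 6) and 7.96 CPM (knockdown 9), except for knockdown 7 with 22.4 CPM, and the controls at 5.15 and 6.89 CPM fell within that range. The log2 fold change was 0.30 ± 0.62 (SE, edgeR adjusted p = 0.75) and turned to -0.14 without knockdown 7. The model of Fgfr2 in the table, from 137305965 to 140315033, spans 3009 kb and 39 other gene models lie in or across it. Reads shared with those models may have been set aside or mixed in, so that the level of Fgfr2 is uncertain.

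As a pool, the 4 kinase receptors were mostly Fgfr1 in every tumour. Its share of the summed CPM per kb was 96.5% and 93.5% in the controls and averaged 87.8% ± 5.73 (SD, n = 9) over the knockdown tumours. The share was lowest in knockdown 7 (78.9%), knockdown 1 (81.5%) and knockdown 9 (81.6%), and 8 of 9 knockdown tumours lay below both controls. Fgfr3 held 8.45% ± 3.59 against 2.76% and 5.33%, and Fgfr4 2.49% ± 2.63 against 0.0606% and 0.0876%. Fgfr4 reached 6.70% in knockdown 7 and 7.17% in knockdown 9, and its mean without these tumours was 1.21% ± 0.853 (SD, n = 7). In exact two-sided permutation tests over 55 splits, adjusted over the 4 receptors, no share passed (Fgfr1 -7.22 percentage points, adjusted p = 0.19; Fgfr2 0.409, 0.47; Fgfr3 4.40, 0.19; Fgfr4 2.41, 0.19), and none had an unadjusted p under 0.05. A lone share at the smallest possible p (0.018) would not pass this adjustment either.

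**Figure D2:**
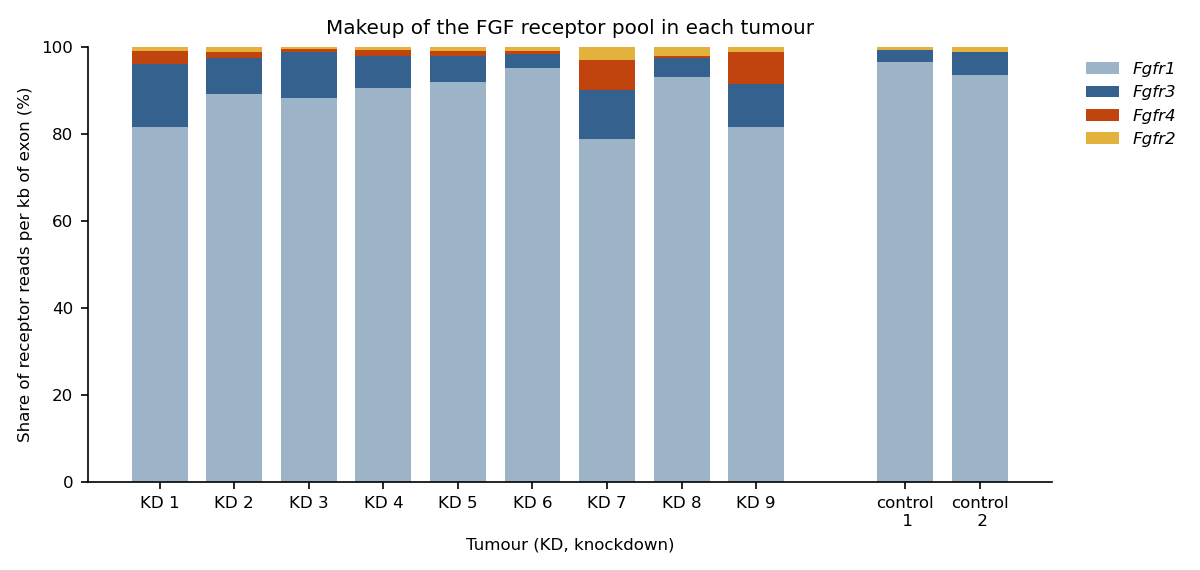
Share of each receptor in the summed CPM per kb of exon of Fgfr1 to Fgfr4, in percent, 1 bar for each tumour (KD, knockdown). Fgfr1 fills between 78.9% and 96.5% of every bar, and the Fgfr4 band is visible chiefly in knockdown 1, 7 and 9.

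Fgfrl1, which binds FGFs but has no kinase domain (ENSMUSG00000008090, mm9 chromosome 5, 109123248 to 109135969), was lower than both controls in 8 of 9 knockdown tumours. Its levels ran from 33.8 CPM (knockdown 6) over a median of 41.9 CPM to 89.4 CPM in knockdown 7, while knockdown 9 stood at 254 CPM, above the controls with 109 and 149 CPM. With all tumours the log2 fold change was -0.88 ± 0.65 (SE, edgeR adjusted p = 0.35). Without knockdown 9 it was -1.44 and passed (adjusted p = 0.0050). It passed also without both knockdown 7 and 9 (-1.67, adjusted p = 0.00011) and among the libraries with Xist (-1.73, adjusted p = 0.00069), both chosen after seeing the data. DESeq2, which replaced outlying counts of this gene by imputed ones, gave -1.44 (adjusted p = 0.00016). Markers of fibroblasts and meninges, all detected, had their lowest sums in knockdown 9 (726 CPM), knockdown 7 (1452 CPM) and knockdown 3 (1591 CPM). Fgfrl1 in knockdown 3 was at 45.3 CPM. The other knockdown tumours reached up to 4354 CPM summed, and the controls had 4236 and 4385 CPM. In the knockdown tumours the sum was mostly Col1a1 and Col3a1 (847 and 1299 CPM on average), both lowest in knockdown 9. Dcn and Lum were lowest in knockdown 3. Among the knockdown tumours Pdgfrl (68.2 CPM) and Foxc1 (37.4 CPM) were instead highest in knockdown 9. The part of these markers in the level of Fgfrl1 was not tested.

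Fgf2, the basic FGF on which neural stem cells grow in culture (ENSMUSG00000037225, mm9 chromosome 3, 37211441 to 37304299), fell 2.44-fold. The knockdown tumours ran from 1.51 CPM (knockdown 8) over a median of 3.29 CPM to 6.48 CPM (knockdown 3), on 20 to 94 counts, and the controls had 10.9 and 5.89 CPM. Knockdown 3 overlapped control 2, and the 8 others lay below both controls. The log2 fold change was -1.29 ± 0.43 (SE, edgeR adjusted p = 0.047). The call did not hold without control 1 (-0.78, adjusted p = 0.46) or without control 2 (-1.67, adjusted p = 0.071). It was lost without knockdown 1, 2, 4, 5, 6 or 9 as well, each time with an adjusted p of at most 0.072. Among the libraries with Xist the adjusted p was 0.092, without knockdown 7 and 9 it was 0.051, and with no filter on low counts 0.056.

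Fgf2 is overlapped by 5 other gene models, which were looked at after the values of Fgf2 were seen. Nudt6, on the opposite strand, fell, from 17.2 and 10.6 CPM in the controls to a mean of 7.81 CPM (log2 fold change -0.83 ± 0.26, edgeR adjusted p = 0.040). Cetn4, also on that strand (-0.15 ± 0.22, adjusted p = 0.66), Bbs12 (-0.20 ± 0.24, adjusted p = 0.57) and Gm12541 (-1.47 ± 0.70, adjusted p = 0.15) did not pass, and Gm12540 was not tested. The use of strand in counting is not given in the sources used here, so that reads of Fgf2 and of genes opposite to it cannot be told apart. The sums of the neural stem and progenitor markers are given above, and their part in the fall of Fgf2 was not tested. The Fgf2 promoter is shown as that of the growth factor of neural stem cells, one of the ligands that passed, from GRCm38.p6 chr3:37348403-37348652, plus strand, 5′ to 3′, CG in capitals.
Fgf2: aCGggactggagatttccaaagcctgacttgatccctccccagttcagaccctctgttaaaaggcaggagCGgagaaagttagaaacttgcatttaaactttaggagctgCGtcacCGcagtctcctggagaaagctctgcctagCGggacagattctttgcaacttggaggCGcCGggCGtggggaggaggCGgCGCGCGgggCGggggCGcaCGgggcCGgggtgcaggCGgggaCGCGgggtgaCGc
It held 20 CG, a number that 17.9% of the windows reached or exceeded.

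Fgf18, a ligand of FGFR3 among others (ENSMUSG00000057967, mm9 chromosome 11, 33017430 to 33047400), passed as lower only through control 1. That tumour had 8.62 CPM (112 counts), whereas control 2 had 0.814 CPM (13 counts), in the midst of the knockdown tumours, which ran from 0.157 CPM (knockdown 1) over a median of 0.759 CPM to 1.89 CPM (knockdown 7). The log2 fold change of -2.32 ± 0.65 (SE, edgeR adjusted p = 0.024) became 0.20 (adjusted p = 0.92) with control 2 as the only control, and -3.20 (adjusted p = 0.0073) with control 1 as the only one. By limma-voom it missed the threshold (-1.59, adjusted p = 0.16). DESeq2 flagged outlying counts of this gene too and gave -2.37 (adjusted p = 0.012), near the -2.32 of edgeR. Whether it replaced any of them was not checked, so that its call does not speak for a fit without control 1. Control 1 also had the higher summed markers of neutrophils (200 against 59.4 CPM in control 2), whose part in the level of Fgf18 was not tested.

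Fgf1, the acidic FGF, which binds all the kinase receptors (ENSMUSG00000036585, mm9 chromosome 18, 38998327 to 39089058), was by its mean per kb the most abundant of the 5 ligand-family genes in both groups and did not pass the test. It ran from 77.6 CPM (knockdown 8) over a median of 232 CPM to 345 CPM (knockdown 1) and 644 CPM (knockdown 9). The controls, with 103 and 316 CPM, lay within that range. The log2 fold change was 0.24 ± 0.65 (SE, edgeR adjusted p = 0.82), with -0.36 without control 1 and 1.25 without control 2. Arhgap26, on the opposite strand, overlaps Fgf1 and was named for that after its values were seen. It rose from 14.7 and 21.0 CPM to a mean of 36.0 CPM (log2 fold change 1.01 ± 0.29, edgeR adjusted p = 0.028).

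Fgf13 and Fgf9 were near the limit of detection. Fgf13, an intracellular FGF-like protein of neurons that acts on sodium channels and microtubules (ENSMUSG00000031137, mm9 chromosome X, 56315322 to 56821248), had 1 to 19 counts a library. It stood at 0.664 ± 0.352 CPM (SD, n = 9) against 0.692 and 0.752 CPM (log2 fold change -0.11 ± 0.59 SE, edgeR adjusted p = 0.91). Fgf9, a ligand made by neurons and glia (ENSMUSG00000021974, mm9 chromosome 14, 58689384 to 58731174), had 0 counts in knockdown 1, where a count of 0 allows up to 0.235 CPM. It reached 15 counts (0.808 CPM) in knockdown 8, and the controls had 0.385 and 0.188 CPM. The ratio of its summed counts was 1.08 (95% exact binomial interval 0.498 to 2.68, counting error only), and no difference was detectable at this depth.

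**Figure D3:**
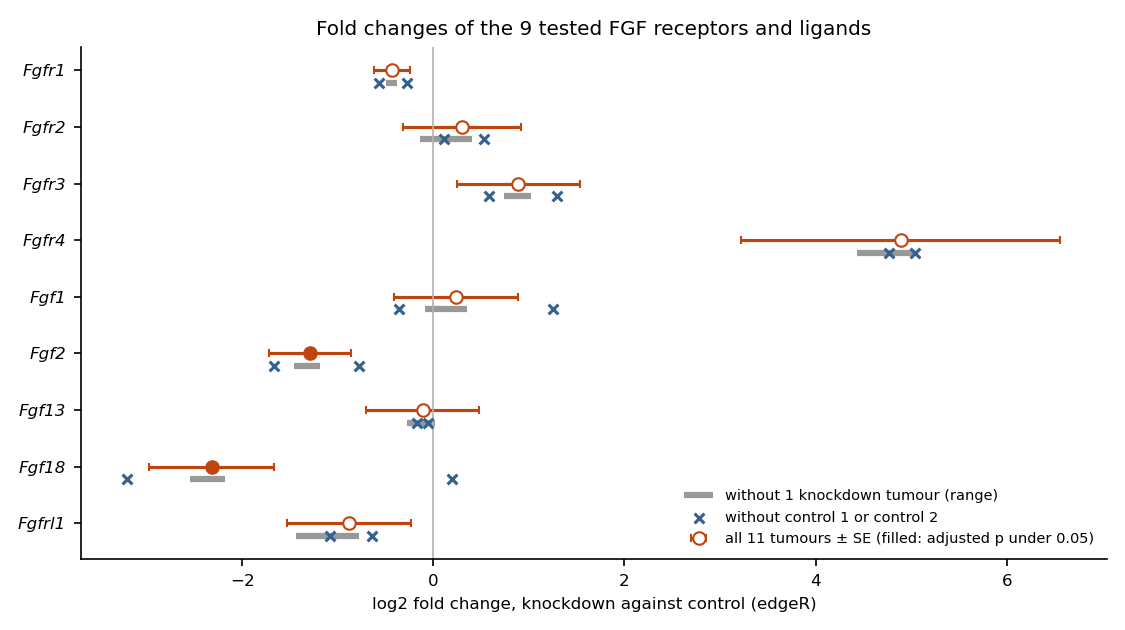
Log2 fold change of knockdown against control for the 9 tested genes (circles, ± SE, filled where the adjusted p was under 0.05), with the range when 1 knockdown tumour is left out (grey bars) and the values without control 1 or control 2 (crosses). Fgf18 moves from -2.32 to 0.20 and -3.20 as either control is left out, while Fgfr4 stays between 4.43 and 5.04 in all of these fits.

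The other genes of the pathway were read in 6 lists, in which 6 of 104 tested genes rose and 15 fell, 20.2% against 23.3% of all tested genes. Of the other 16 FGF genes found in the table, 8 were tested and none passed by edgeR or limma-voom, while 2 had an unadjusted p under 0.05 and DESeq2 called 3 as higher (median log2 fold change 0.58). Fgf3, a ligand of embryonic inner ear and brain, was at 23.7 ± 18.5 CPM (SD, n = 9) against 6.92 and 0.626 CPM (2.66 ± 1.18 SE, adjusted p = 0.12). Without control 1 its value was 5.22 and without control 2 it was 1.77, and neither passed. Fgf12, an intracellular relative of Fgf13, was at 3.12 ± 3.34 CPM against 0.692 and 0.626 CPM (2.23 ± 0.99 SE, adjusted p = 0.12) and above both controls in 9 of 9 tumours.

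Of all tested genes 23.3% were called, 13.0% of them all as lower. Heparan sulfate proteoglycans, co-receptors and other FGF-binding proteins showed 4 lower and none higher of 20 tested (20.0% called, median -0.16). None passed as higher at an unadjusted p under 0.05, by DESeq2 or by limma-voom, although 1 did among the libraries with Xist. Agrn, the proteoglycan agrin, fell from 431 ± 15.7 to 194 ± 47.5 CPM (log2 fold change -1.15 ± 0.22 SE, edgeR adjusted p = 0.0038). Gpc1, the lipid-anchored proteoglycan glypican 1, fell from 335 ± 137 to 137 ± 32.7 CPM (-1.29 ± 0.25, adjusted p = 0.0046), a call lost without control 1 (-0.80, adjusted p = 0.16). Of the 20 tested enzymes that build and edit heparan sulfate 1 rose and 4 fell (median -0.09). Extl3 and Ext1, glycosyltransferases that start and extend the chain, fell by 1.65 ± 0.21 and 1.09 ± 0.17 on the log2 scale (adjusted p = 0.00044 and 0.0012). Without control 1 the value of Extl3 was -0.92 and still passed. Hs6st2, a 6-O-sulfotransferase, rose by 1.95 ± 0.57 (adjusted p = 0.029), a call lost without control 1 (adjusted p = 0.15) or control 2 (adjusted p = 0.18).

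Of 26 adaptors and early signalling proteins 4 fell and none rose (edgeR, 15.4% called against 23.3% of all tested genes, median -0.18). At an unadjusted p under 0.05 2 were higher, and DESeq2 called 1 and limma-voom 0 as higher. Nras, a RAS protein, fell from 201 ± 12.2 to 115 ± 12.7 CPM (log2 fold change -0.80 ± 0.12 SE, adjusted p = 0.00098). Gab2, a docking protein, fell by 0.92 ± 0.17 (adjusted p = 0.0033; 0.12 without control 1), and Frs2, the adaptor that FGF receptors bind directly, by 0.47 ± 0.13 (adjusted p = 0.024). Frs2 was picked after its values were seen. Without control 1 and without control 2 the list had 1 and 3 lower genes.

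Of 14 tested feedback inhibitors 2 rose and 1 fell (21.4% called against 23.3% of all tested genes, median 0.30). At an unadjusted p under 0.05 6 were higher and 3 lower, DESeq2 called 5 and 2, and edgeR without knockdown 7 and 9 also 5 and 2. Spry1, a Sprouty protein, was at 157 and 164 CPM in the controls and 409 ± 71.8 CPM in the knockdown tumours, above both controls in 9 of 9 (log2 fold change 1.35 ± 0.21 SE, edgeR adjusted p = 0.0011). Rasa1, a GTPase-activating protein of RAS, rose from 260 ± 8.48 to 661 ± 127 CPM (1.35 ± 0.24, adjusted p = 0.0027). Both passed in all 19 alternative settings, with adjusted p of at most 0.043 and 0.040. Spred3 fell from 187 ± 36.2 to 81.5 ± 17.0 CPM (-1.20 ± 0.20, adjusted p = 0.0021), with an adjusted p at the threshold (0.05) without control 1. Of 16 transcriptional targets 3 rose and 2 fell (31.2% called, median 0.02). The immediate early genes Egr2 (1.63 ± 0.44, adjusted p = 0.020) and Egr1 (1.57 ± 0.49, adjusted p = 0.037) rose, and Ccnd1, cyclin D1 (-0.98 ± 0.26, adjusted p = 0.020), and the AP-1 factor Fosl1 (-1.37 ± 0.41, adjusted p = 0.032) fell. No target passed without control 1 or without control 2, where the tests rest on a single control library.

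**Figure D4:**
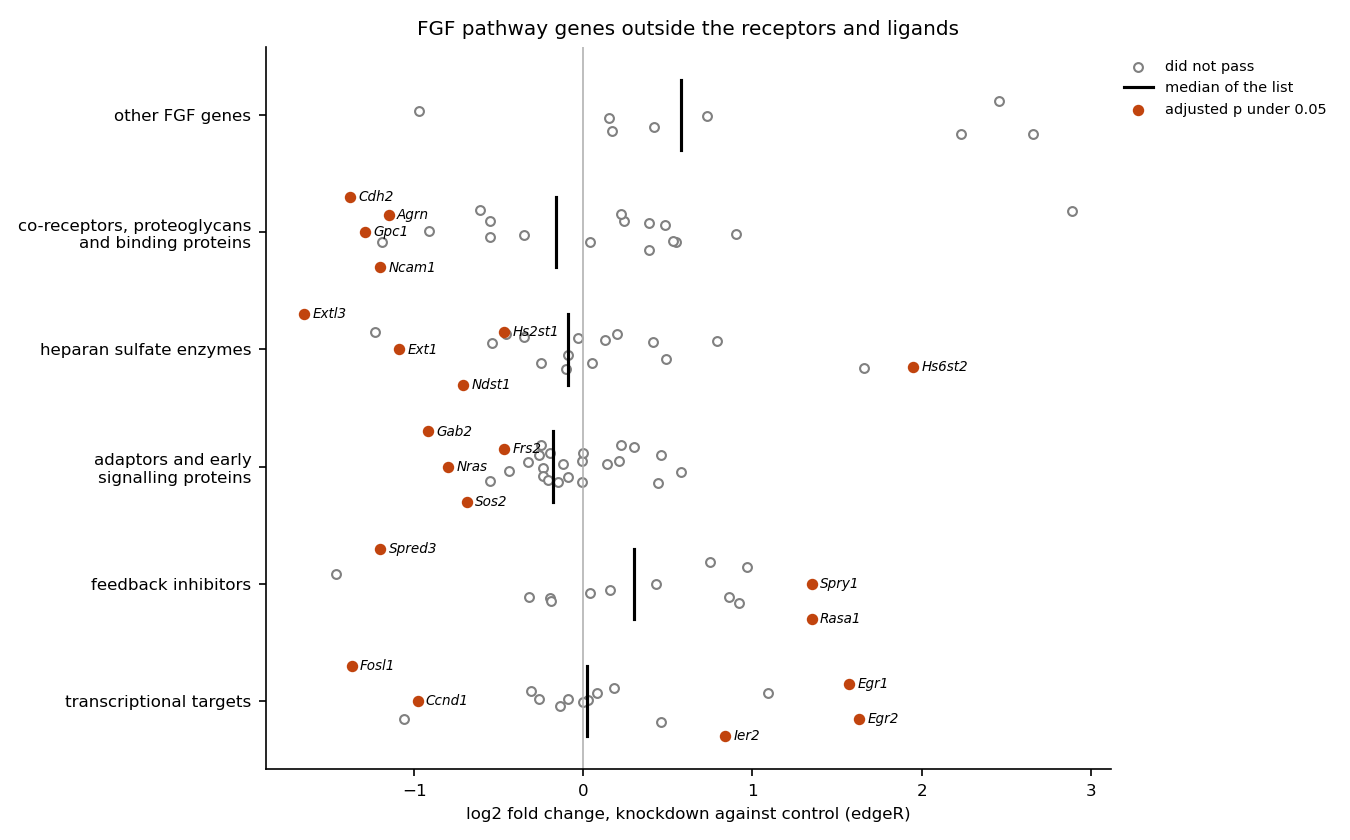
Log2 fold changes of the 104 tested pathway genes outside the 10 receptors and ligands, 1 point a gene, by list (vertical scatter only separates points), with the median of each list as a black line. The 21 filled, named points passed the test, 6 to the right and 15 to the left of 0, and the 4 filled points of the co-receptors and proteoglycans and the 4 of the adaptors are all on the left. Of all tested genes 10.3% passed as higher and 13.0% as lower.

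Among the 9 knockdown tumours the 10 genes were also set against the remaining Ezh2 level, which ran from 7.27 CPM (knockdown 8) to 30.4 CPM (knockdown 3). By Pearson's r of log2(CPM + 1) none of the 10 relations passed after adjustment over the 10, while 3 had an unadjusted exact permutation p under 0.05. Fgf1 was higher where more Ezh2 remained (r = 0.72, exact permutation p = 0.026, adjusted p = 0.13; Spearman's rho = 0.57, adjusted p = 0.40). Without knockdown 3 and 9, the tumours farthest from the median of Ezh2, its r was 0.64. Fgf13 had r = 0.67 (exact permutation p = 0.047, adjusted p = 0.16; rho = 0.58, adjusted p = 0.40) and 0.28 without those tumours, so that its relation rests on them. Fgf9 had r = -0.73 (exact permutation p = 0.023, adjusted p = 0.13) and rho = -0.88 (adjusted p = 0.031), and r = -0.90 without the same tumours, but on only 0 to 15 counts a library. For Fgfr4, by contrast, r was 0.21 (exact permutation p = 0.59) and rho 0.15.

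The genes whose levels most resembled each well-expressed receptor or ligand over the 9 knockdown tumours were read from 10898 candidates by Pearson's r of log2(CPM + 1), as a description. For Fgfr4, high in knockdown 7 and 9, they were Elovl7 (r = 0.99), Otor (0.98) and Lsamp (0.98). For Fgf1 and Fgfrl1, both highest in knockdown 9, they were Zscan18 (0.99), Rbm20 (0.98) and Plekha5 (0.98), and Kcnc1 (0.99), Aard (0.98) and Tmem56 (0.98). Fgfr3, low in knockdown 6 and 8, was most like Cxcl14 (0.96), Lmo4 (0.96) and Abat (0.95). Fgfr1 was most like Jhdm1d (0.95), Tbl2 (0.94) and Pou6f1 (0.94), and Fgfr2, which knockdown 7 dominates, like Gde1, Sepx1 and Rhoc (each 0.97). With 9 points and this many candidates, values near 1 arise readily when 1 or 2 tumours are extreme.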

How the data were processed

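The authors deposited raw counts for 11 tumours in a single table keyed by Ensembl gene (whole numbers with differing totals). TopHat 1.4.0, HTSeq and build mm9 are named in the submitters' processing notes. Settings, filters and strand use in counting: not given in the sources used here. Libraries were made with the TruSeq RNA kit from TRIzol RNA, per the labels' protocols.

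Groups and replicate numbers came from the titles. In R 4.3.3 with edgeR 4.0.16, filterByExpr kept 16241 of 27687 genes (99.9% of the counts), TMM factors (0.919 to 1.077) scaled the libraries, and all 11 libraries were fitted without covariates (estimateDisp, glmQLFit, glmQLFTest). The SE is the log2 fold change divided by the square root of F. CPM are TMM-scaled, and lengths are unions of exons in GENCODE M21 (GRCm38), used without its coordinates. Promoters are RefSeq's, GRCm38.p6. DESeq2 1.42.0 and limma 3.58.1 (voom) were alternatives. The fits were tested on simulated data. Of 226 list symbols 224 were found, 1 of them through its current symbol, and Fgf6 and Spry3 were not. Genes named by rule are the 10 members, Ezh2 and the 3 most like each member at 5 CPM or more. The rule also takes the 2 with the smallest p in each direction of each pathway list (the 2 smallest where none passed). Frs2, Xist, the gene models that overlap Fgf2 and Fgf1 and single cell type markers were named outside this rule. One allele of the tumour model and 1 pathway gene are not reported here. The members and lists were chosen with earlier results of these data known. A correlation over 2 same-numbered pairs of libraries is in the closing section.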

Additional observations from a re-analysis of the deposited data

Results flagged for a closer look

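Among the 9 knockdown tumours 3 values stood apart from the rest of their group, of 15 quantities examined (the 10 genes, the 4 receptor shares and Ezh2), by Dixon's test at the 95% level. For normally distributed values chance alone marks about 1 group in 20, but the CPM tested here were not log-transformed and need not follow that distribution. The receptor shares were computed from 4 of the same genes, so that the 15 quantities are not independent. Fgfr2 was at 22.4 CPM in knockdown 7, and the next tumour was at 7.96 CPM. Fgf1 was at 644 CPM in knockdown 9, next to 345 CPM. Fgfrl1 was at 254 CPM in knockdown 9, next to 89.4 CPM. Both tumours had at most 14 counts of Xist, as had knockdown 1 and 8.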

How the results depend on the processing

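The controls limit these results most, since only 2 were measured. Over the fits that leave out 1 library, the number of called receptors and ligands, 2 in all libraries, ran from 0 (without control 1) to 3, that of pathway genes, 21 in all, from 7 (without control 1) to 27, and the log2 fold change of Ezh2 from -1.76 to -1.48, its call being lost without either control. In the same fits the log2 fold changes ran from -3.20 to 0.20 for Fgf18, from -0.36 to 1.25 for Fgf1, from -0.28 to 0.02 for Fgf13 and from -0.14 to 0.53 for Fgfr2, and Pearson's r with Ezh2 from -0.15 to 0.61 for Fgfr4 and from -0.16 to 0.62 for Fgfrl1. Called receptors and ligands numbered 4 by DESeq2, 1 by limma-voom, 1 with no filter on low counts and 0 with the replicate block described below. Called pathway genes numbered 33 by DESeq2, 9 with the replicate block and 36 without knockdown 7 and 9. Among the libraries with Xist and without knockdown 7 and 9 (both chosen after seeing the data) the log2 fold change turned to -0.39 and -0.23 for Fgfr2 and to -0.24 and -0.17 for Fgf1.

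The replicate numbers 1 and 2 occur in both groups but share only a number. Higher numbers occur only among the knockdown tumours. A fit with the replicate number as a block therefore compares only tumours 1 and 2 of each group. Deviations from the group means correlated at -0.142 for pair 1 and 0.017 for pair 2. The 2 controls deviate from their mean by equal and opposite amounts. The crossed pairs were therefore fixed at 0.142 and -0.017, and add nothing of their own. With this block Ezh2 stood at -1.55 (edgeR adjusted p = 0.057), Fgfr2 at -0.07, and 686 genes passed against 3790. The smaller number goes with fewer tumours in the comparison and is no check of the main fit. All genes called numbered 4864 by DESeq2, 1290 without control 1 and 1750 without control 2, and the causes were not tested. No relation with Ezh2 by Pearson's r passed in any alternative. Depth limits Fgf9, Fgf13, Fgf18 and, in the controls, Fgfr4.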
